A study of Mus musculus with 12 samples.

Results

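Phospholipase A2 enzymes cut a fatty acid from membrane or lipoprotein phospholipids and so release arachidonic acid and other lipids from which prostaglandins and leukotrienes are made. The family holds secreted enzymes, a calcium-dependent cytosolic enzyme, calcium-independent enzymes, acetylhydrolases that inactivate platelet-activating factor, and a lysosomal enzyme. In liver they are best known for lipoprotein handling in hepatocytes and for lipid mediators of macrophages. The 7 genes described here, of 56748 genes in the table, were given by name: Pla2g2d, Pla2g4a, Pla2g6, Pla2g7, Pla2g12a, Pla2g12b and Pla2g15. The set was chosen from the same data, because Pla2g2d stood out between livers given the CD40 agonist alone and control livers, so that contrast is given for all 7 genes as a description with no test. All 7 genes had enough counts to be tested, among 15465 genes that did, but Pla2g2d passed that filter through its counts in the groups where it is high.

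RNA was measured in 12 liver libraries, 3 in each of 4 groups, from mice bearing pancreatic ductal adenocarcinoma (PDAC), with an age of 12 weeks in the design text. The groups were isotype (described in the labels both as isotype antibody control and as no treatment), agoCD40 (an agonistic antibody to CD40, a receptor found on dendritic cells, B cells and macrophages), anti-IL-1R1 (blockade of the interleukin-1 receptor) and Combo (both antibodies). All groups carried the tumour, and no liver without tumour is among them. Strain, genotype, tumour model, antibody clone, dose and timing are not given in the sources used here. The labels do not tie each library to its own animal, so p-values measure the spread between libraries.

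Pla2g2d carried the main difference described below. Pla2g7 was the other member whose Combo and anti-IL-1R1 libraries did not overlap in counts scaled to library size. Pla2g12b, the most abundant member, serves for contrast. The promoters of these 3 genes are shown first. Each runs 5′ to 3′ on the gene's strand from 250 bases before to 50 bases after the RefSeq start, in the RefSeq table's build GRCm38.p6, while the counts were made on GRCm39. Capitals mark motif matches on either strand. The Pla2g2d promoter lies at chr4:138775485-138775784 (plus strand), that of Pla2g7 at chr17:43568201-43568500 (plus strand), and that of Pla2g12b at chr10:59403435-59403734 (plus strand).
Pla2g2d: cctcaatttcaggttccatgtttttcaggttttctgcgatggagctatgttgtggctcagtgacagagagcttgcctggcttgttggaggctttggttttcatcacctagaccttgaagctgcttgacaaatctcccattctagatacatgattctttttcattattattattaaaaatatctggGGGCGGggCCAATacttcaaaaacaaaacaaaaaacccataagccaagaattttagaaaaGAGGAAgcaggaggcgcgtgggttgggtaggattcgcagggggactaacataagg
Pla2g7: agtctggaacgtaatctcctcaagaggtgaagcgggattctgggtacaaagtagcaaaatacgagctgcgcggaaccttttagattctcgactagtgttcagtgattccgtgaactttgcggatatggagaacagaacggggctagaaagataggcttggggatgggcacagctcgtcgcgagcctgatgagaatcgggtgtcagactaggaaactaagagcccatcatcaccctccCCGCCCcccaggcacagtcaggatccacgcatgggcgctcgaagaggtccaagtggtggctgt
Pla2g12b: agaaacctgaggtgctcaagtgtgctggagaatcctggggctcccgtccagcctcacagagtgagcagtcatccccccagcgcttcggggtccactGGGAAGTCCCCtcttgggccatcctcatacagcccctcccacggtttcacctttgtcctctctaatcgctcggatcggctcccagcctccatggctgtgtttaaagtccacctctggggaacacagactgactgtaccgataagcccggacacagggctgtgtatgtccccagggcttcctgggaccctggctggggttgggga
Motifs were searched by their letters on both strands: the TATA box TATAAA, the CCAAT box CCAAT, the GC box GGGCGG, the AP-1 motif TGANTCA, the PU box GAGGAA, and the NF-kB motif GGGRNNYYCC. In these letters N is any base, R is A or G, and Y is C or T. The Pla2g2d window held a GC box at base 186, a CCAAT box at base 194 and a PU box at base 246, counted from 1 at its 5′ end. The Pla2g7 window held a GC box at base 238, and the Pla2g12b window held a pair of overlapping NF-kB matches from bases 97 and 98, 1 on each strand. Of 32817 promoter windows of this length, 35.6% held a GC box, 37.4% a CCAAT box, 28.3% a PU box, 8.46% an NF-kB match, 13.6% a TATA box and 7.81% an AP-1 match. A match is a description of these letters and no evidence of binding. The other 4 members matched the same table and are not printed; Pla2g4a has 2 starts in it.

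Total counts ranged from 18681390 to 27118712 per library, and the median correlation of log2 CPM (counts scaled to a common library size) was 0.965 within groups and 0.957 between groups. Mitochondrial transcripts took 14.1% of counts in isotype 2 and 14.8% in anti-IL-1R1 2, and 6.23% to 12.2% in the other libraries. Hepatocyte markers summed to 69720 to 104800 CPM per library, and 7 of 10 exocrine pancreas markers had 0 counts in all 12 libraries, so the libraries carried the markers of the labelled tissue.

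Per length, the liver of these mice expressed mainly 3 of the 7 genes. On the TPM scale, which corrects for transcript length and allows levels of different genes to be compared, Pla2g12b, a secreted group XIIB protein of hepatocytes without catalytic activity that takes part in lipoprotein secretion, was highest at 58.7 TPM over the 12 libraries (43.5 to 75.6). Pla2g12a, the related catalytic group XIIA secreted enzyme, had 18.4 TPM, and Pla2g6, a calcium-independent enzyme of membrane remodelling, had 16.1 TPM. Pla2g15, the lysosomal phospholipase A2, had 9.28 TPM. Pla2g7, the secreted acetylhydrolase that inactivates platelet-activating factor, had 2.79 TPM. The lowest were Pla2g2d, a secreted group IID enzyme best known from dendritic cells and macrophages of lymphoid tissue, with 0.881 TPM, and Pla2g4a, the cytosolic enzyme that releases arachidonic acid, with 0.838 TPM. Pla2g12a and Pla2g6 overlapped in their ranges (12.4 to 24.99 and 11.5 to 22.3 TPM), as did Pla2g2d and Pla2g4a (0 to 2.82 and 0.311 to 2.41 TPM).

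The summed level of the 7 genes was 115 ± 18.2 TPM in isotype, 109 ± 9.25 in agoCD40, 89.5 ± 6.13 in anti-IL-1R1 and 115 ± 10.4 in Combo (mean ± SD, n = 3 per group). Pla2g12b alone made up 57.4% ± 1.59 of this sum in isotype, 59.3% ± 0.744 in agoCD40, 52.2% ± 1.62 in anti-IL-1R1 and 50.1% ± 3.36 in Combo. Pla2g2d made up 0% in isotype, 1.23% ± 0.673 in agoCD40, 0.0283% ± 0.0246 in anti-IL-1R1 and 1.90% ± 0.293 in Combo. The gene with the widest difference between groups was thus a small part of the phospholipase A2 transcripts in every group.

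**Figure D1:**
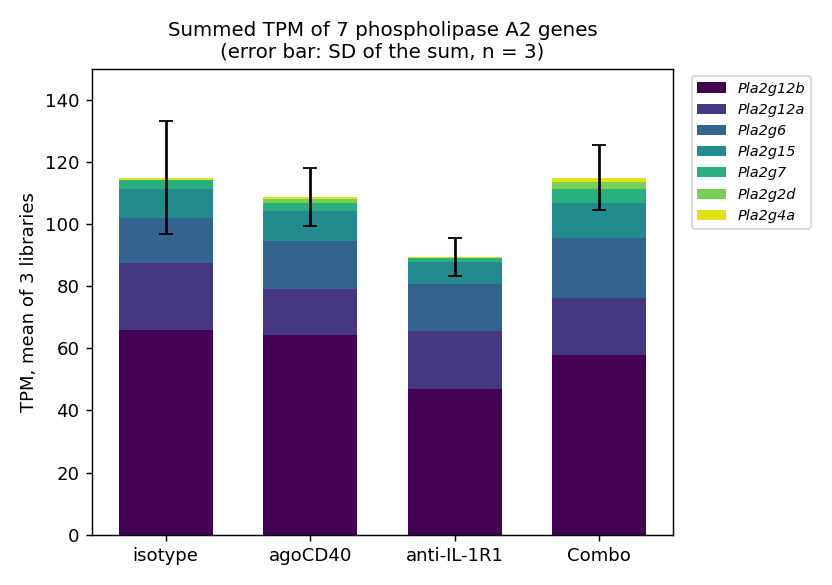
Stacked bars give the mean TPM of the 7 phospholipase A2 genes in each group (3 libraries each), and the error bars give the SD of the sum. Pla2g12b fills the largest part of every bar, and the Pla2g2d segment is visible only in agoCD40 and Combo.

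Pla2g2d (ENSMUSG00000041202, chromosome 4) was near or at 0 in both groups without the CD40 agonist and present in every library of both groups with it. Isotype 1, 2 and 3 had 0 counts each. The anti-IL-1R1 libraries had 0, 1 and 1 counts. The agoCD40 libraries had 48, 30 and 101 counts, and the Combo libraries had 72, 48 and 67. Each of the 6 libraries with the agonist lay above each of the 6 without it. In CPM the values were 2.04, 1.11 and 3.72 in agoCD40 (2.29 ± 1.32, SD, n = 3), 3.03, 1.92 and 2.82 in Combo (2.59 ± 0.590), 0.0268 ± 0.0233 in anti-IL-1R1 and 0 in isotype. The agoCD40 libraries spread more widely than the Combo libraries, agoCD40 2 being the lowest and agoCD40 3 the highest of the 6.

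**Figure D2:**
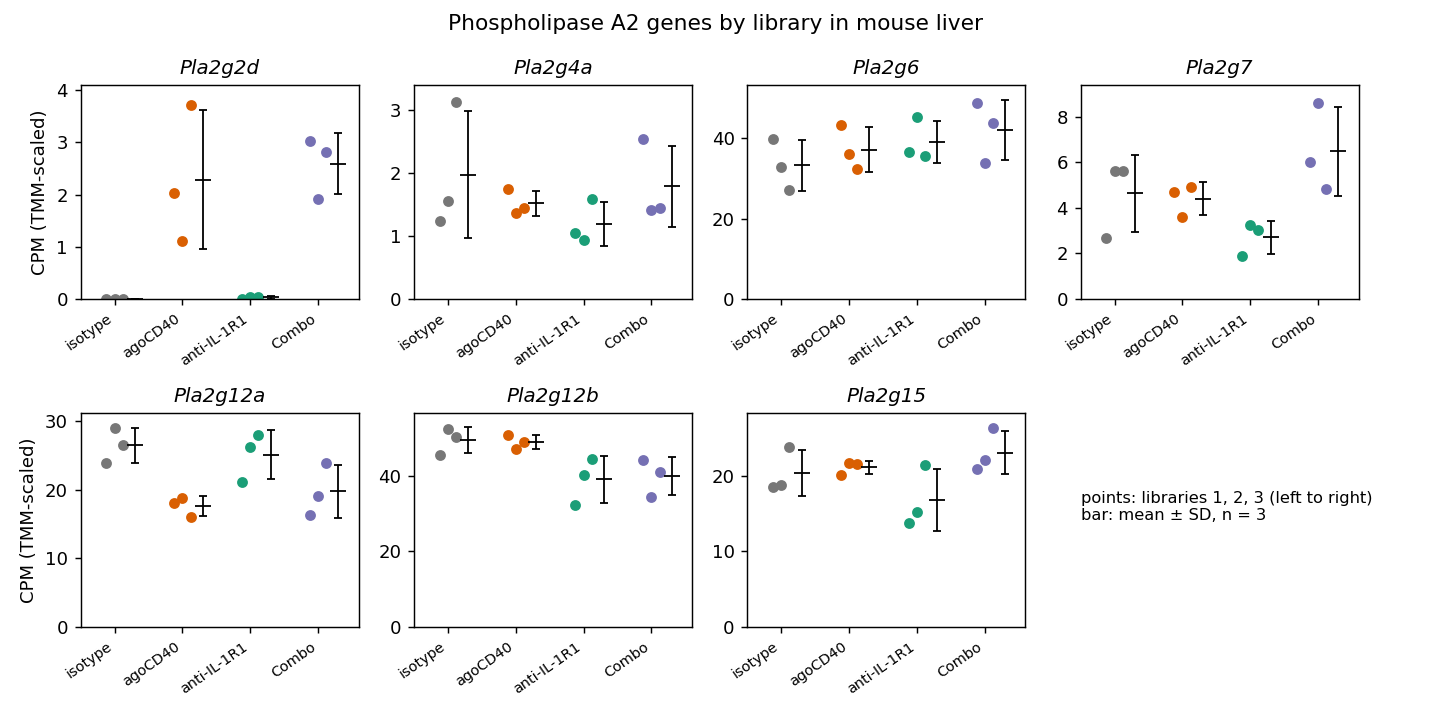
Points give CPM (scaled by TMM, a between-library normalization) of each of the 7 genes in each of the 12 libraries, with mean and SD (n = 3) beside them and an axis from 0 for each gene. Pla2g2d separates the 2 groups with the agonist from the 2 without it, while the other 6 genes are expressed in all groups.

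The comparison of Combo with anti-IL-1R1 gave the effect of the agonist under receptor blockade, and it shares no library with the contrast that chose Pla2g2d. The spread in the fit was estimated over all 12 libraries, however, those that chose Pla2g2d among them. Pla2g2d also passed the filter through its high groups, so its p is not fully independent of that choice. Pla2g2d rose: 187 counts in Combo stood against 2 in anti-IL-1R1, a ratio of CPM of 92.5 with a 95% counting interval of 25.3 to 769. Those 2 counts are under the floor of 3 counts set below for groups at 0. The ratio therefore cannot be compared in size with the lower bounds given against isotype. In the fit the log2 fold change was 6.30 ± 0.78 (SE; 95% interval 4.59 to 8.01; adjusted p = 0.0125, edgeR's quasi-likelihood test with Benjamini-Hochberg adjustment over 15465 genes), and Pla2g2d ranked 8 of 15465 genes by p. Pla2g2d was the only one of the 7 members past the threshold of 0.05, while 0.175% of all genes tested passed (27 genes). The set was chosen because of Pla2g2d, so these shares cannot show an excess among members. With Pla2g2d included, the median log2 fold change was 0.45 over the members and 0.03 over all genes tested. The call was lost without anti-IL-1R1 2 (adjusted p = 0.0885) and without anti-IL-1R1 3 (adjusted p = 0.0839), where the fold change was 6.63 and 6.61 on the log2 scale, and also without the pair highest in mitochondrial counts, isotype 2 and anti-IL-1R1 2 (adjusted p = 0.0528). Its adjusted p ranged from 8.71e-09 to 0.0885 over the 15 alternatives. Since the tissue is bulk liver, more cells of a type and more RNA per cell cannot be told apart.

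Pla2g7 (ENSMUSG00000023913, chromosome 17) was the other member whose libraries did not overlap in CPM in this comparison. It had 1.87, 3.23 and 3.02 CPM in the anti-IL-1R1 libraries and 6.02, 8.61 and 4.81 CPM in the Combo libraries. Every Combo library was higher than every anti-IL-1R1 library, and Combo 2 was highest. The log2 fold change was 1.26 ± 0.34 (SE; 95% interval 0.52 to 1.99; unadjusted p = 0.00272) and missed the threshold (adjusted p = 0.146, edgeR). It passed with DESeq2 (adjusted p = 0.0255) and with no filter on low counts (adjusted p = 0.0239). Non-overlap in CPM was itself common: 22.2% of all genes tested had it in this comparison. Of the 7 members 2 had it, Pla2g2d and Pla2g7, both higher in Combo. On the TPM scale Pla2g15 (11.06 to 11.93 in Combo, 5.56 to 8.61 in anti-IL-1R1) did not overlap either. Nor did Pla2g4a (0.612 to 2.41 and 0.311 to 0.582 TPM).

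Pla2g15 (ENSMUSG00000031903, chromosome 8) measured 13.8, 15.2 and 21.5 CPM in anti-IL-1R1 and 20.9, 22.1 and 26.3 CPM in Combo. The highest anti-IL-1R1 library lay within the Combo range, and the log2 fold change of 0.45 ± 0.18 had an unadjusted p of 0.0265 and did not pass (adjusted p = 0.275, edgeR). Pla2g4a (ENSMUSG00000056220, chromosome 1) measured 1.19 ± 0.348 CPM in anti-IL-1R1 and 1.79 ± 0.641 CPM in Combo, or 0.58 ± 0.43 on the log2 scale (adjusted p = 0.526, edgeR). Pla2g12a (ENSMUSG00000027999, chromosome 3) was the only member with a negative fold change, -0.35 ± 0.17 (adjusted p = 0.351, edgeR), from 25.1 ± 3.56 to 19.8 ± 3.84 CPM. Pla2g6 (ENSMUSG00000042632, chromosome 15) and Pla2g12b (ENSMUSG00000009646, chromosome 10) had the smallest differences, with log2 fold changes of 0.11 (95% interval -0.30 to 0.51) and 0.03 (95% interval -0.29 to 0.35). These intervals are the sizes the libraries leave possible, and none of these 5 genes is shown to be unchanged. The fold changes rest on TMM scaling, under which the median of all genes was 0.03; it was 0.19 with total counts, 0.20 on log2(TPM + 1) and 0.29 on log2(TPM + 0.1), and the negative fold change of Pla2g12a was then between -0.19 and -0.05.

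**Figure D3:**
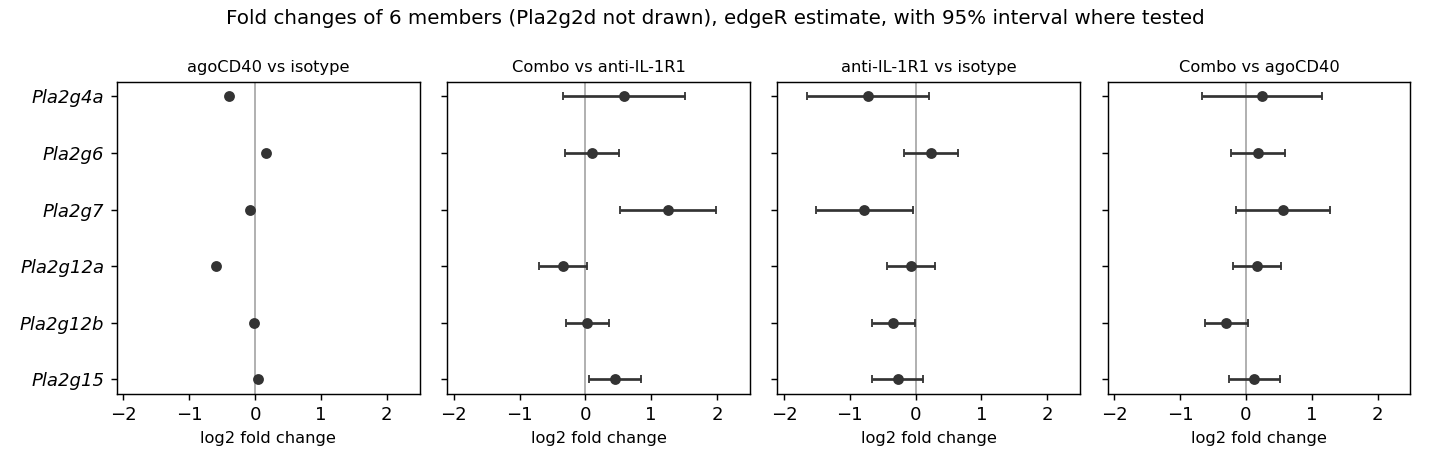
Points give the edgeR log2 fold change of the 6 members other than Pla2g2d in 4 comparisons, on 1 axis; bars are 95% intervals, drawn only in the 3 comparisons with a test. Only Pla2g7 and Pla2g15 have intervals above 0 in Combo against anti-IL-1R1, and neither passed after adjustment over all genes.

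Against isotype, agoCD40 gave the values that chose Pla2g2d, and they are listed without a test. The 179 counts of Pla2g2d in agoCD40 against 0 in isotype put it at least 50.2-fold higher, taking 3 counts over the isotype group (0.0458 CPM) as the floor, or at least 29.6-fold without isotype 3. Among the other members the groups did not overlap for Pla2g12a, at 18.0, 18.8 and 16.1 CPM in agoCD40 and 23.9, 29.0 and 26.6 CPM in isotype, a log2 difference of -0.59. All 3 agoCD40 libraries of Pla2g12a were lower in CPM, while on TPM agoCD40 2 and isotype 2 both lay at 18.05. The log2 differences of the other 5 genes lay between -0.39 (Pla2g4a, 0.12 without isotype 3) and 0.16 (Pla2g6). In this contrast 0.718% of all genes tested passed the threshold and 14.4% had groups that did not overlap. The member nearest to Pla2g2d in size of change was therefore Pla2g12a, in the opposite direction.

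Between anti-IL-1R1 and isotype, the 2 groups without agonist, 0 of the 6 members tested passed; over all genes 0% passed, with 565 genes at an unadjusted p under 0.05 in edgeR and 3 genes called by DESeq2. At an unadjusted p under 0.05 were 2 members, Pla2g7 and Pla2g12b. Pla2g12b measured 45.5, 52.3 and 50.1 CPM in isotype and 32.3, 40.3 and 44.4 CPM in anti-IL-1R1, and the groups did not overlap. Its log2 fold change was -0.34 ± 0.15 (adjusted p = 0.987, edgeR). It was the 1 member without overlap in CPM, where 6.43% of all genes had none. Pla2g7 measured 2.68, 5.63 and 5.60 CPM in isotype, so isotype 1 lay within the anti-IL-1R1 range, and its log2 fold change was -0.78 ± 0.34 (adjusted p = 0.987, edgeR). Pla2g2d had 0 counts in isotype and 2 in anti-IL-1R1, both under the floor of 3 counts, so no fold is given.

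Setting Combo against agoCD40 gave the effect of adding the blockade to the agonist; this comparison shares its agoCD40 libraries with the contrast that chose Pla2g2d. Pla2g2d had a ratio of CPM of 1.12 between Combo and agoCD40 with a 95% counting interval of 0.910 to 1.39, and the libraries of the groups overlapped. The fit, which also holds the spread between libraries, gave a log2 difference of 0.18 with a 95% interval of -0.95 to 1.31, so a difference of up to about that size in either direction is not excluded by these libraries. Of the 6 other members 0 passed, where 0.00647% of all genes did (1 gene). At an unadjusted p under 0.05 in edgeR were 0 of the 6 and 960 of all 15465 genes, and DESeq2 called 0 of the 6. Pla2g12b was lower in all Combo libraries (44.1, 34.3 and 41.1 CPM) than in all agoCD40 libraries (50.7, 47.1 and 49.0 CPM), with a log2 fold change of -0.30 ± 0.15 (adjusted p = 0.796, edgeR). In CPM it was the 1 member without overlap, where 14.7% of all genes had none. On TPM it overlapped (50.8 to 68.1 in Combo, 60.8 to 70.3 in agoCD40). In that unit Pla2g7 (2.87 to 6.08 and 2.39 to 2.74) and Pla2g15 (11.06 to 11.93 and 8.33 to 10.98) did not. Pla2g7 had 4.71, 3.58 and 4.90 CPM in agoCD40, and its log2 fold change was 0.56 ± 0.33 (adjusted p = 0.812, edgeR).

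Whether the agonist effect differed with and without blockade was tested as an interaction, which passed for 0 of 6 members and for 0.00647% of all genes (1 gene). Pla2g7 had the smallest p among the members: its agonist difference was -0.08 on the log2 scale without blockade and 1.26 with it, an interaction of 1.34 ± 0.47 (95% interval 0.31 to 2.37; unadjusted p = 0.0147; adjusted p = 0.586, edgeR). At an unadjusted p under 0.05 in edgeR were 1161 of all genes and 1 of the 6 members, and DESeq2 called 0 of the 6. For Pla2g2d no interaction is given as a result, since its isotype libraries were at 0 and the contrast that chose it is part of the term.

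Combo against isotype shares libraries with each of the other comparisons and adds the joint effect of both antibodies. Pla2g2d was at least 56.4-fold higher in Combo on the same floor. Leaving out isotype 3 lowered this bound to at least 33.2-fold, because fewer isotype counts raise the floor. The groups did not overlap for Pla2g12a (23.9 to 29.0 CPM in isotype, 16.3 to 23.9 CPM in Combo, the nearest libraries lying at 23.91 and 23.90) and for Pla2g12b (45.5 to 52.3 and 34.3 to 44.1 CPM), both lower in Combo. On TPM both overlapped (Pla2g12a 18.05 to 24.99 in isotype and 16.14 to 20.66 in Combo, Pla2g12b 55.5 to 75.6 and 50.8 to 68.1). Neither passed: the log2 fold changes were -0.42 ± 0.17 (adjusted p = 0.357, edgeR) and -0.31 ± 0.15 (adjusted p = 0.461, edgeR). In all, 0 of 6 members passed in edgeR or DESeq2, where 0.407% of all genes did in edgeR. At an unadjusted p under 0.05 in edgeR were 1 of the 6 and 1777 of all 15465 genes. In CPM 3 of 7 had groups without overlap, Pla2g2d among them, where 16.3% of all genes did.

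Set in order, Pla2g2d was highest in Combo, then agoCD40, then anti-IL-1R1, then isotype; Combo and agoCD40 did not separate beyond their spread, nor did anti-IL-1R1 and isotype. Pla2g7 was highest in Combo (6.48 ± 1.94 CPM), then isotype (4.64 ± 1.69), agoCD40 (4.40 ± 0.715) and anti-IL-1R1 (2.70 ± 0.732), and neighbours in this order overlapped except agoCD40 and anti-IL-1R1. Pla2g12a was highest in isotype (26.5 ± 2.54 CPM), then anti-IL-1R1 (25.1 ± 3.56), Combo (19.8 ± 3.84) and agoCD40 (17.6 ± 1.40), so both groups with the agonist had the lower means. Pla2g12b was highest in isotype (49.3 ± 3.46 CPM) and agoCD40 (48.9 ± 1.82), with Combo (39.8 ± 5.03) and anti-IL-1R1 (39.0 ± 6.14) below, so both groups with the blockade had the lower means. Pla2g15 ranged from 16.8 ± 4.09 CPM in anti-IL-1R1 to 23.1 ± 2.81 in Combo, and Pla2g6 from 33.3 ± 6.34 CPM in isotype to 42.1 ± 7.49 in Combo. Pla2g4a ranged from 1.19 ± 0.348 CPM in anti-IL-1R1 to 1.97 ± 1.01 in isotype, where isotype 3 had 3.12 CPM and isotype 1 had 1.23. In Combo 2 the Pla2g4a units went apart: 35 counts stood for 2.41 TPM, which is 14.5 counts per TPM, while the other 11 libraries had 40.4 to 74.0 counts per TPM.

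Markers of several immune cell types followed the agonist groups as Pla2g2d did, among them those of B cells and plasma cells. The summed level over 14 B cell and plasma cell markers, of which 13 were tested and none had 0 counts in all libraries, was 12.6 to 14.1 CPM in isotype, 13.1 to 21.5 in anti-IL-1R1, 29.8 to 104 in agoCD40 and 56.7 to 66.1 in Combo. Every library with the agonist was above every library without it. Within agoCD40 the order was the same as that of Pla2g2d (79.8, 29.8 and 104 CPM in libraries 1, 2 and 3), and within Combo it was the opposite (56.7, 66.1 and 59.9 CPM). Of the 13 tested markers 12 had positive fold changes in Combo against anti-IL-1R1, and 10 were at an unadjusted p under 0.05 in edgeR. Over all 15465 genes 2373 were under 0.05 in that comparison. Derl3 went the other way (4.92 CPM in anti-IL-1R1 and 2.56 in Combo). Only 1 passed, Jchain, which joins IgM or IgA into polymers (log2 3.30, adjusted p = 0.00333, edgeR). In agoCD40 against isotype all 13 were positive and 3 passed (Ms4a1, Cd79a and Jchain). T cell and NK cell markers summed to 4.45 to 9.72 CPM in isotype, 3.78 to 7.27 in anti-IL-1R1, 9.72 to 18.0 in agoCD40 and 10.3 to 14.8 in Combo; every agonist library was again above the rest, agoCD40 1 and isotype 3 by a narrow margin (9.720 and 9.717). Of the 11 tested, all 11 had positive fold changes in agoCD40 against isotype and in Combo against anti-IL-1R1, and 0 passed in any comparison in edgeR (5 at an unadjusted p under 0.05 in Combo against anti-IL-1R1). The neutrophil granule gene Camp had 179, 43 and 108 counts in agoCD40 and 46, 120 and 67 in Combo, against 0 in isotype and 0, 0 and 1 in anti-IL-1R1. Ngp, another granule gene, measured 8.67 ± 1.10 CPM in agoCD40 and 9.44 ± 4.62 in Combo, with counts only in isotype 3 (27) among the other libraries. Of 12 neutrophil markers 4 rose in Combo against anti-IL-1R1 (S100a8, S100a9, Camp and Ngp), with sums of 8.69 to 41.8 CPM in anti-IL-1R1 and 45.7 to 82.6 in Combo; in isotype the sum was 35.8 to 107 CPM. Against isotype 8 of the 12 were positive in agoCD40 and 8 in Combo, and Camp alone passed. The others had lower means in both agonist groups. Lcn2 had 44.5 CPM in isotype, 23.5 in agoCD40 and 10.9 in Combo. In the same order Csf3r had 8.16, 3.74 and 4.085, Cxcr2 1.68, 0.495 and 0.462, and Retnlg 2.17, 1.97 and 1.45. The part of these markers in the Pla2g2d difference was not tested.

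Dendritic cell markers, which mark cells known for Pla2g2d, summed to 17.4 to 34.5 CPM in isotype, 22.4 to 24.7 in agoCD40, 14.8 to 21.5 in anti-IL-1R1 and 21.7 to 36.8 in Combo. None of the 12 had 0 counts in all libraries, and 0 of the 10 tested passed in any of the 6 comparisons in edgeR (4 at an unadjusted p under 0.05 in Combo against anti-IL-1R1). Fscn1 and Zbtb46 had the highest means in every group, so the sum does not stand for each marker. By sign 4 of 10 were positive in agoCD40 against isotype and 5 of 10 in Combo against anti-IL-1R1. Cd83 had 2.75 CPM in isotype, 4.08 in agoCD40, 1.275 in anti-IL-1R1 and 4.58 in Combo. In the same order Flt3 had 0.581, 1.39, 0.405 and 1.56. Kupffer cell markers, from the resident macrophages of the liver, summed to 537 to 874 CPM in isotype, 391 to 568 in agoCD40, 501 to 588 in anti-IL-1R1 and 481 to 556 in Combo, a sum carried mostly by C6, Slc40a1 and Cd5l. In Combo against anti-IL-1R1 they did not move together: 2 of 10 passed, both lower (Clec4f and Cd163). By sign 4 of 10 were positive, among them Adgre1 (log2 1.09, unadjusted p = 0.0368, edgeR), Marco (1.03, unadjusted p = 0.0389) and Cd5l (0.67, unadjusted p = 0.0415). The rest were negative, among them Vsig4 (21.49 CPM in anti-IL-1R1, 11.45 in Combo), Timd4 (7.78 and 2.805) and Folr2 (11.4 and 6.38). In agoCD40 against isotype 1 of 10 was positive and 4 passed, all lower (Clec4f, Vsig4, Cd163 and Folr2). Beside Pla2g7, 12 of 12 markers of monocytes and recruited macrophages had positive fold changes in Combo against anti-IL-1R1, and 1 passed (Gpnmb). In agoCD40 against isotype 6 of the 12 were positive and 0 passed. In Combo against isotype 7 of the 12 were positive and 1 passed (Gpnmb). In anti-IL-1R1 against isotype 0 of the 12 were positive, with a median log2 difference of -0.71. Their sum (848 to 1506 CPM in anti-IL-1R1, 1439 to 1733 in Combo) is nearly all Fn1, which hepatocytes also express (1080 ± 338 and 1399 ± 131 CPM), and so does not measure these cells. Of the others Lyz2 had 65.9 ± 7.57 and 161 ± 15.8 CPM, Ly6c2 0.597 ± 0.233 and 3.35 ± 0.963, and Trem2 0.334 ± 0.174 and 1.90 ± 1.73. Hepatocyte markers summed to 86890 to 104800 CPM in isotype, 69720 to 85750 in agoCD40, 95650 to 104400 in anti-IL-1R1 and 71790 to 75060 in Combo. This sum is mostly Alb, with group means from 39360 CPM in Combo to 57900 in anti-IL-1R1. In Combo against anti-IL-1R1 0 of 10 passed and 3 were positive (Tat, Cps1 and Ass1). Pla2g12b did not follow the groups of this sum, having 38.99 CPM in anti-IL-1R1 and 39.81 in Combo. Other lists also moved with Combo against anti-IL-1R1: erythrocyte markers summed to 822 to 1296 CPM in anti-IL-1R1 and 1850 to 2945 in Combo, and the log2 differences of the stellate cell genes Col1a1 and Col3a1 were 3.20 and 2.53, each missing the threshold (adjusted p = 0.0777, edgeR). Follicular dendritic and lymphoid stroma markers had a median log2 difference of 1.34 in agoCD40 against isotype and 0.49 in Combo against anti-IL-1R1 over 6 genes. In each comparison 5 of the 6 were positive, and Cxcl13 went the other way. It had 2.55 ± 0.609 CPM in isotype, 0.394 ± 0.111 in agoCD40, 2.12 ± 0.620 in anti-IL-1R1 and 0.384 ± 0.260 in Combo. Only Cxcl13 passed in agoCD40 against isotype, and none passed in Combo against anti-IL-1R1. The part of these markers in the values of the members was not tested.

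**Figure D4:**
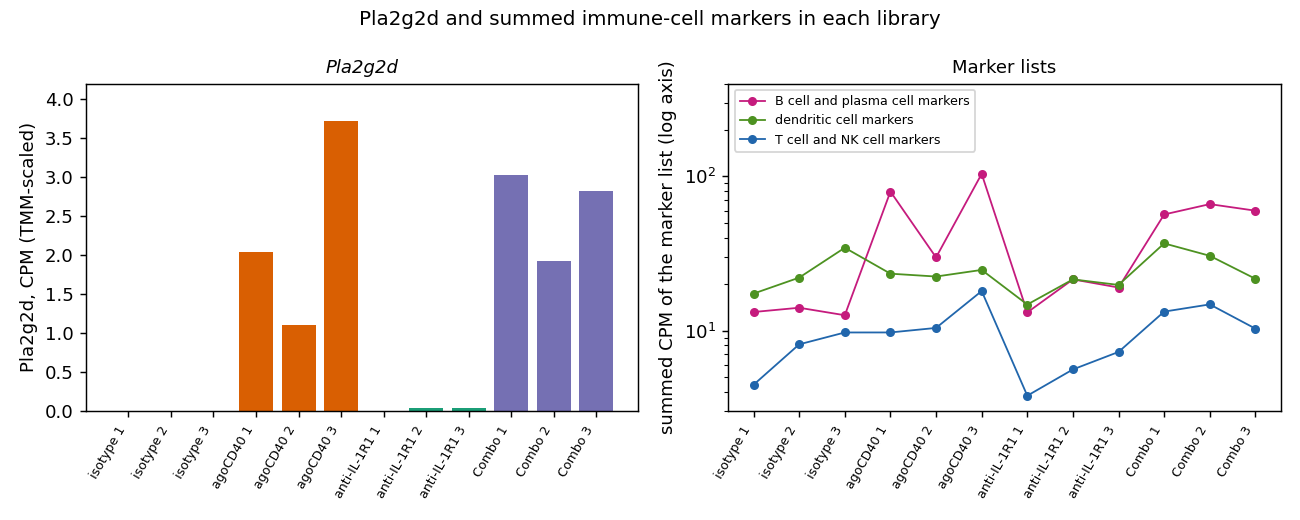
Left, bars give Pla2g2d in CPM for each of the 12 libraries; right, lines give the summed CPM of 3 marker lists in the same libraries on a log axis. The B cell and plasma cell sum (29.8 to 104 CPM with the agonist, 12.6 to 21.5 without) and the T cell and NK cell sum (9.72 to 18.0 and 3.78 to 9.72 CPM) follow the groups as Pla2g2d does. The dendritic cell sum, in which Fscn1 and Zbtb46 have the highest means, overlaps between groups.

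The genes whose levels across the 12 libraries were most like Pla2g2d, by Pearson's r of log2(CPM + 1), were Cilp (0.971), H4c8 (0.969), Ltb (0.964), Il9r (0.962) and Spib (0.959). Ltb is lymphotoxin beta, Spib is a transcription factor of B cells and plasmacytoid dendritic cells, Il9r is a cytokine receptor subunit, Cilp is a matrix protein and H4c8 is a histone gene. These values hold mainly the difference between groups: on the deviations from the group means r was 0.680 to 0.834 and 0 of the 5 stayed among the 5 closest, while 3 did on log2(TPM + 1). They are descriptions over 12 libraries that share group and depth.

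The other secreted phospholipase genes beside Pla2g2d were at or near 0. It lies in a cluster of secreted phospholipase genes on chromosome 4, in the RefSeq order Ubxn10, Pla2g2c, Pla2g2f, Pla2g2d, Pla2g5, Gm13030, Pla2g2e and Otud3. Over all 12 libraries Pla2g2c had 8 counts, Pla2g5 had 12, Pla2g2f and Pla2g2e had 0, and the flanking genes Ubxn10 and Otud3 had 25 and 1023. Pla2g2d had 368 counts in all. The table holds 20 genes with a Pla2g symbol, and of the 13 that are not members 7 had 0 counts in every library, which allows up to 0.0104 CPM over all 12 libraries by counting error (Pla2g10, Pla2g2f, Pla2g2e, Pla2g1b, Pla2g4e, Pla2g2a and Pla2g4d). Another 5 had at most 27 counts in all, and Pla2g4b alone passed the filter; it lies in tandem with Jmjd7, reads of the 2 genes can be shared, and its values are uncertain.

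Beyond the members, 87 genes of phospholipid and lipid mediator metabolism were followed in 6 lists, of which 61 were tested. In edgeR 0 of 61 passed in any of the 6 comparisons, with 3 to 11 of them at an unadjusted p under 0.05 in each. Over all 15465 genes tested 565 to 2373 were under 0.05. The 11 list genes and the 2373 genes both belong to Combo against anti-IL-1R1. DESeq2 called 1 of the 61 genes in Combo against anti-IL-1R1, 3 in agoCD40 against isotype, 2 in Combo against isotype and 0 in the others. In Combo against anti-IL-1R1 the median log2 fold change was 0.23 over the 61 genes, 40 of them positive, against 0.03 over all genes tested. By list it was 0.10 for other phospholipase A2 genes (9 tested), 0.28 for lysophospholipid re-acylation and breakdown (14), 0.14 for platelet-activating factor (5), 0.35 for prostanoid synthesis (13), -0.09 for lipoxygenase and epoxide enzymes (9) and 0.67 for eicosanoid receptors (11). In agoCD40 against isotype the median was -0.04 over the 61 genes and -0.02 over all genes.

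Among the genes that use or follow phospholipase A2 products, Lpcat2, which re-acylates lysophospholipids and makes platelet-activating factor, measured 2.12 ± 0.475 CPM in anti-IL-1R1 and 4.49 ± 1.23 in Combo, a log2 fold change of 1.08 ± 0.29 (adjusted p = 0.141, edgeR; 0.0262 with DESeq2). Mboat7, which returns arachidonic acid to phosphatidylinositol, had 28.3 ± 4.72 and 39.8 ± 4.43 CPM in the same groups (log2 0.50, adjusted p = 0.223, edgeR). Lyplal1, a relative of the lysophospholipases, had 15.4 ± 3.88 and 21.3 ± 2.31 CPM (adjusted p = 0.261, edgeR). These 3 genes had positive fold changes that did not pass. Of the genes around platelet-activating factor, the intracellular acetylhydrolase Pafah2 had a log2 fold change of 0.45 ± 0.16 in this comparison (adjusted p = 0.244, edgeR) and the receptor Ptafr one of 0.98 ± 0.49 (adjusted p = 0.356, edgeR). Pafah1b2, a subunit of the brain-type acetylhydrolase, had its smallest p in agoCD40 against isotype (log2 -0.29, adjusted p = 0.603, edgeR).

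In prostanoid synthesis, Ptgs1, the constitutive cyclooxygenase, measured 17.0 ± 3.67 CPM in isotype, 10.7 ± 0.518 in agoCD40, 12.8 ± 1.93 in anti-IL-1R1 and 11.3 ± 0.239 in Combo. Its log2 fold change in agoCD40 against isotype was -0.67 ± 0.18 (adjusted p = 0.127, edgeR; 0.0258 with DESeq2). Ptges3, the cytosolic prostaglandin E synthase and co-chaperone, had a log2 fold change of -0.49 ± 0.15 in Combo against anti-IL-1R1 (adjusted p = 0.194, edgeR), and Ptgr1, which inactivates prostaglandins and leukotriene B4, one of -0.83 ± 0.27 in Combo against isotype (adjusted p = 0.241, edgeR). In the leukotriene branch, Ltc4s, leukotriene C4 synthase, had 0 counts in the isotype libraries and 10, 18 and 6 in the Combo libraries, at least 10.3-fold higher (adjusted p = 0.0579, edgeR), with 9, 6 and 9 counts in agoCD40 and 10, 8 and 4 in anti-IL-1R1. The isotype libraries were thus the only ones without Ltc4s counts. In Combo against isotype Ltc4s passed with DESeq2 (adjusted p = 0.00514), with no filter on low counts (0.0141) and in limma on log2(TPM + 1) (0.0442) and log2(TPM + 0.1) (0.00263), and in agoCD40 against isotype with DESeq2 (0.0153), no filter (0.0376) and log2(TPM + 0.1) (0.00674). Alox5ap, which presents arachidonic acid to 5-lipoxygenase, measured 4.72 ± 2.69 CPM in isotype and 1.76 ± 0.408 in agoCD40 (log2 -1.43, adjusted p = 0.180, edgeR; 0.0385 with DESeq2 and 0.0370 with no filter), and the epoxygenase Cyp2j6 differed by -0.35 on the log2 scale in Combo against agoCD40 (adjusted p = 0.791, edgeR).

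The receptors had low counts. Gpr18 went from 0.144 ± 0.163 CPM in isotype to 0.881 ± 0.579 CPM in the agoCD40 libraries (adjusted p = 0.310, edgeR), Ptgir, the prostacyclin receptor, 0.0662 ± 0.115 in anti-IL-1R1 and 0.545 ± 0.398 in Combo (adjusted p = 0.276, edgeR), and Cmklr1, a chemerin receptor, an interaction of 1.66 ± 0.69 (adjusted p = 0.642, edgeR). In the list of other phospholipase A2 genes, Plaat3, an adipose-type phospholipase of the PLAAT family, measured 8.64 ± 2.00 CPM in isotype and 15.4 ± 0.825 in Combo (log2 0.83 ± 0.21, adjusted p = 0.145, edgeR; 0.0286 with DESeq2 and 0.0481 with no filter). Pnpla6, a lysophospholipase of the patatin-like family, had 19.6 ± 4.65 and 12.96 ± 2.86 CPM in the same groups (adjusted p = 0.292, edgeR). Lcat, the plasma enzyme that esterifies cholesterol with a fatty acid from phosphatidylcholine, had 319 ± 2.92 CPM in anti-IL-1R1 and 385 ± 21.1 in Combo (adjusted p = 0.331, edgeR).

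**Figure D5:**
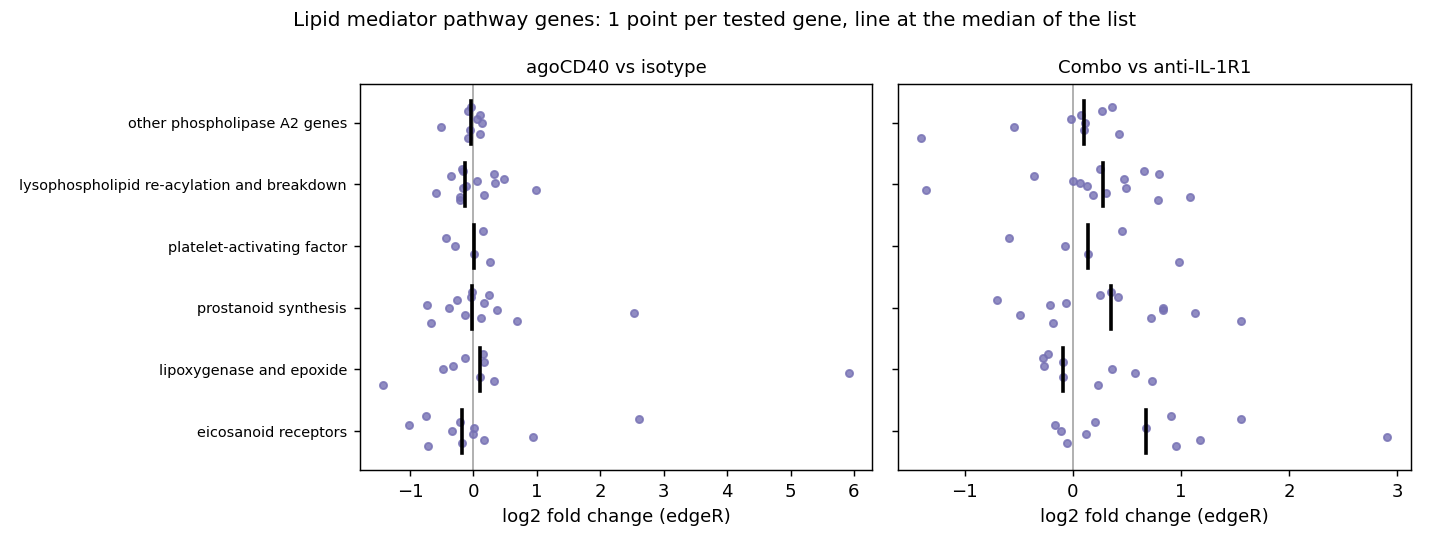
Each point is the edgeR log2 fold change of 1 tested gene of the 6 lipid mediator lists (61 genes), and a line marks each list's median, in agoCD40 against isotype (left) and Combo against anti-IL-1R1 (right). None of the 61 genes passed after adjustment over all genes in either comparison; the point near 6 on the left is Ltc4s, which had 0 counts in isotype.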

How the data were processed

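Poly(A)-selected liver RNA of 12 libraries was grouped by sample titles. The authors deposited expected counts and TPM per gene; both have 1 column per library, per the file headers. The submitters' processing notes name the GRCm39 build, FastQC 0.12.1, cutadapt, Trim Galore 0.6.7, STAR, SAMtools 1.16.1, Picard 3.0.0, bedtools 2.30.0, StringTie 2.2.1, RSEM 1.3.1 and DESeq2 1.28.0, without roles. File names refer to salmon, so the counting tool is not settled here. Estimated counts can be split between similar genes, and TPM divides by an effective length that can differ between libraries.

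Expected counts were rounded and analysed in R 4.3.3 with edgeR 4.0.16: filterByExpr (minimum count 10, 15465 of 56748 genes), TMM scaling, 1 fit of all 12 libraries with a mean per group, the quasi-likelihood F test and Benjamini-Hochberg adjustment over all genes tested (threshold 0.05). The biological coefficient of variation was 0.291. A group at 0 counts was set to a floor of 3 counts over the group; floors and 95% counting intervals (exact, for the ratio of counts) cover counting error only. Steps were tested on simulated data. Alternatives were RLE and total-count scaling, no filter, DESeq2 1.42.0, limma 3.58.1 on log2(TPM + 1) and log2(TPM + 0.1), a replicate block, only the groups compared, and leaving libraries out.

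The members, lists, markers and motifs were chosen with earlier results of these data known. All members were named; of each pathway list, genes past the threshold plus up to 3 with the smallest p over the comparisons; of like genes, the 5 closest to Pla2g2d and 2 to each other member, leaving out predicted genes.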

Additional observations from a re-analysis of the deposited data

How the results depend on the processing

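Pla2g2d in Combo against anti-IL-1R1 kept its direction in all 15 alternatives and its call in 12; limma gave 1.63 on log2(TPM + 1) and 4.19 on log2(TPM + 0.1), where the pseudocount shrinks the change of a low gene; without isotype 2 and anti-IL-1R1 2 together it was 6.63 on the log2 scale (adjusted p = 0.0528), and leaving out 1 library gave 5.82 to 6.63. The members called there numbered 2 with no filter and with DESeq2 (Pla2g7 added, 1.24 and 1.23), 0 without that pair and 0 to 1 with 1 library left out. Pathway genes called were 1 with no filter (Gpcpd1) and 1 with DESeq2 (Lpcat2) in Combo against anti-IL-1R1. In Combo against isotype they were 2 with no filter, 2 with DESeq2 (Plaat3 and Ltc4s in both), and 1 on either TPM scale (Ltc4s). In agoCD40 against isotype they were 3 with no filter (Ptgds, Alox5ap and Ltc4s), 3 with DESeq2 (Ptgs1, Alox5ap and Ltc4s) and 1 on log2(TPM + 0.1) (Ltc4s). The bound for Pla2g2d in Combo against isotype was 33.2 to 64.0 with 1 library left out and 39.3 without the pair. Of the genes most like Pla2g2d, 3 stayed on log2(TPM + 1) and 0 on deviations.

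Fold changes of members that turned sign had not passed or, in agoCD40 against isotype, had no test; there 4 crossed 0 over the alternatives: Pla2g4a (-0.63 to 0.12), Pla2g7 (-0.35 to 0.081), Pla2g12b (-0.065 to 0.061) and Pla2g15 (-0.014 to 0.18). With 1 library left out, Pla2g12b ran from -0.11 to 0.13 and Pla2g6 from -0.0097 to 0.24 in Combo against anti-IL-1R1, Pla2g12a from -0.16 to 0.059 in anti-IL-1R1 against isotype, Pla2g4a from -0.092 to 0.39 in Combo against agoCD40 and from -0.48 to 0.36 in Combo against isotype, and in the interaction Pla2g6 from -0.20 to 0.079 and Pla2g12b from -0.11 to 0.14. Pla2g4a in Combo against isotype was 0.35 on log2(TPM + 1) and 0.62 on log2(TPM + 0.1). Pla2g6 in the interaction was 0.042 with total-count scaling, 0.20 and 0.21 on the TPM scales and 0.069 without the pair.

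Replicate numbers gave no sign of pairing by the median correlation of deviations (-0.03 over 18 same-number pairs, 0.03 over 36 others). The same-number pairs ran from -0.39 to 0.41, so a median over all groups cannot exclude pairing between some of them. With the replicate block 9 genes in place of 27 passed in Combo against anti-IL-1R1, Pla2g2d among them (6.34, adjusted p = 0.0312). Over all genes, Combo against anti-IL-1R1 had 742 calls with no filter, 486 with DESeq2, 46 and 44 on log2(TPM + 1) and log2(TPM + 0.1), 69 with only the groups compared, and 4 (without anti-IL-1R1 3) to 71 (without isotype 3) with 1 library left out; agoCD40 against isotype had 28 to 108 and Combo against isotype 12 to 63. With 3 libraries per group and 2 counts in anti-IL-1R1, depth limits the Pla2g2d fold.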

Other observations

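Pairs of members followed each other loosely over the 12 libraries: Pearson's r of log2(CPM + 1) ran from -0.798 (Pla2g2d and Pla2g12a) to 0.630 (Pla2g7 and Pla2g15), and on deviations from the group means these pairs had -0.251 and 0.219. The genes most like the other members were Pclaf (0.941) and Krt80 (0.933) for Pla2g4a, Lrrn3 (0.818) and Faah (0.750) for Pla2g6, Cmtm7 (0.933) and Arhgap27 (0.915) for Pla2g7, Ncoa4 (0.924) and Pllp (0.915) for Pla2g12a, and Rbm20 (0.891) and Tmem184c (0.864) for Pla2g12b. For Pla2g15 they were Marco (0.934), a scavenger receptor of macrophages, and Fgr (0.879), a kinase of myeloid cells, with r of 0.915 and 0.814 on deviations from the group means. All are descriptions over 12 libraries that share group and depth, picked as the highest of all tested genes, and carry no test.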
